A study of Homo sapiens with 35 samples.

Results

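The genes described here are 10 members of the Notch cell-contact pathway: the ligands JAG1, JAG2, DLL3 and DLK1, the receptors NOTCH1, NOTCH2 and NOTCH3, and the target genes HES1, HEY1 and HES6. Members were the probe sets annotated to exactly 1 of these symbols. The rule found 20 probe sets of the 22930 on the array, for 9 of the 10 genes and of the 11940 genes tested. HES6 was not analysed here. Where a gene had several probe sets, the one with the highest mean log2 intensity over all arrays stood for it, and the others are described separately.

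The cells were BE(2)-C, a clonal human neuroblastoma line with amplified MYCN, kept in serum-containing medium in every group. They received 5 µM all-trans retinoic acid (ATRA, which activates the retinoic acid receptors and makes such cells differentiate), 1 mM valproic acid (VPA, an inhibitor of histone deacetylases), both agents together, or the vehicle DMSO. Each treatment lasted 6, 24 or 72 h. The 35 arrays form 12 groups of 3, apart from DMSO at 72 h with 2. The labels do not say whether replicates were separate cultures, so p-values measure the spread between these samples only. The 9 comparisons with DMSO share the DMSO arrays of their time, and all results come from 1 clonal line.

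In Notch signalling a ligand on one cell binds a receptor on its neighbour. ADAM proteases and then gamma-secretase cut the receptor and free its intracellular part, which joins the DNA-binding protein RBPJ and a Mastermind coactivator and switches on repressors of the HES and HEY families. Those repressors hold back proneural factors in the nervous system. JAG1 and JAG2 are activating ligands, whereas DLL3 acts mostly as an inhibitor inside the cell and DLK1 is a non-canonical ligand made by chromaffin and neuroblastoma cells.

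The changes against DMSO of the same time fell into 3 kinds. HES1 was higher under VPA, with or without ATRA, from 6 h on, and JAG2 was higher under VPA alone at all times and with both agents at 6 h only. DLK1 and DLL3 were lower at 72 h wherever ATRA was present, and HEY1 was higher there from 24 h on. JAG1, NOTCH1, NOTCH2 and NOTCH3 passed the test in none of the 9 comparisons with DMSO at the probe set that stands for them, although some of their other probe sets did, under VPA most often at 2 NOTCH2 probe sets. Changes are given as log2(intensity + 1) differences ± SE from 1 limma fit over all 35 arrays, with Benjamini-Hochberg adjustment over all genes and a threshold of 0.05. In bulk samples, fewer cells of a type and less RNA per cell cannot be told apart.

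Array intensities were comparable, with array medians between 53.15 and 58.9 on all arrays but 1. DMSO 24 h replicate 1 had a median of 43.63, and the SD of its residuals from the group means was 0.234, against 0.0827 to 0.171 on the other arrays. Where a 24 h call of a member or list gene printed below was lost without that array, the value without it is given beside it. The lower quartile of the arrays lay between 20.84 and 23.63, and values near it carry little signal over background. The log2 ratio of 3' over 5' control signal, a measure of RNA quality, averaged 0.2 to 0.44 in the groups at 6 h, 0.89 to 1.6 at 24 h and 1.06 to 1.82 at 72 h.

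The promoters of HES1 and JAG2, the members that VPA moved at every time, are shown to give the sequence next to the results. They are the 250 bases before the gene start, read 5' to 3' on the strand of the gene from RefSeq (GRCh38.p14). Such windows were searched for 7 of the 10 members, and not for DLL3, DLK1 and HEY1. Capitals mark TGGGAA, the core of the site that RBPJ binds, and CACNAG, the N-box that HES proteins bind, both searched on both strands. TGGGAA is part of the longer GTGGGAA.
HES1, chr3:194135898-194136147, plus strand: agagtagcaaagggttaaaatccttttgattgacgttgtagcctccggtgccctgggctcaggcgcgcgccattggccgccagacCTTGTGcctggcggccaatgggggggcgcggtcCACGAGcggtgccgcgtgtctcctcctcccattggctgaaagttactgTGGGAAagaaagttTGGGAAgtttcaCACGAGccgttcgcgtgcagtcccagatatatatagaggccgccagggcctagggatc
JAG2, chr14:105168777-105169026, minus strand: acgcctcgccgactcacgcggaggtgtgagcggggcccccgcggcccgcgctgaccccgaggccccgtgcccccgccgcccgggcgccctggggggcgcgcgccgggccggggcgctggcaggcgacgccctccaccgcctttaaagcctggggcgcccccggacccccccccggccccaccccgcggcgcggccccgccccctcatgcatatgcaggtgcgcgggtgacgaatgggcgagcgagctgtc

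The HES1 window held 2 TGGGAA matches, 84 to 79 and 70 to 65 bases upstream of the start, the first of them as GTGGGAA, and 3 CACNAG matches. The JAG2 window held neither. Of 35116 promoters of this length, 20.8% held TGGGAA, 5.43% held GTGGGAA and 32% held CACNAG. The windows of JAG1, NOTCH1, NOTCH2 and HES6 held none of these, and that of NOTCH3 held 1 CACNAG match. CACGTG, an E-box that HES and HEY proteins also bind, was in 6.34% of promoters. AGGTCA, the core bound by retinoic acid receptors, was in 12.1%, and its direct repeats with 2 or 5 bases between them were in 0.00285% each. None of the 7 windows held these. The base composition differed as well, with 59.2% G or C in the HES1 window and 81.6% in that of JAG2. Matches describe letters only.

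**Figure D1:**
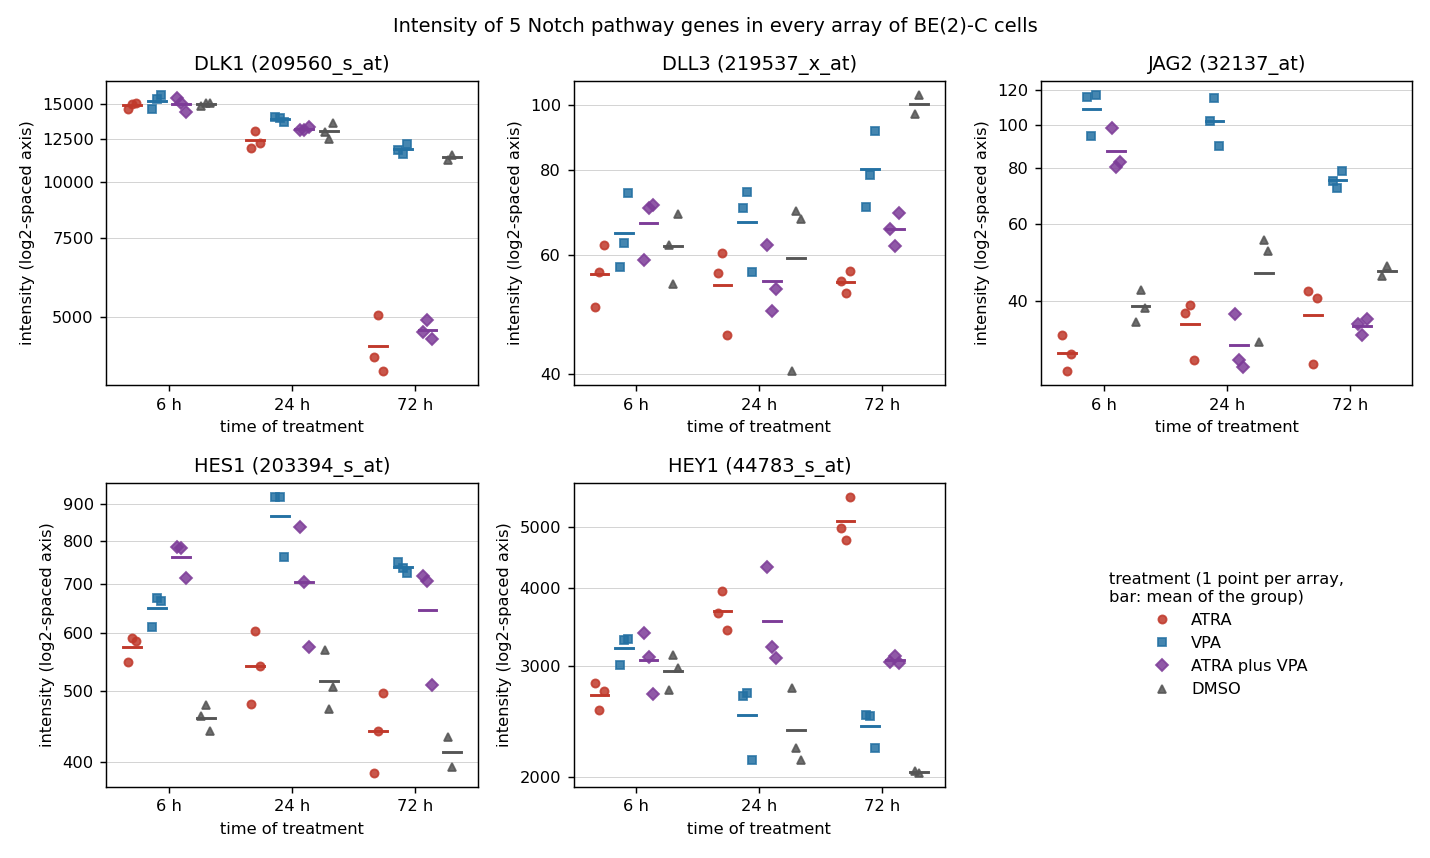
Intensity of DLK1, DLL3, JAG2, HES1 and HEY1 on every array (y axis, log2-spaced) against time of treatment (x axis), with 1 point per array, a bar for the mean of each group, and ATRA, VPA, ATRA plus VPA and DMSO side by side. DLK1 at 72 h lies between 3771 and 5031 in the arrays with ATRA, against 11240 to 12170 in the others.

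The group means of DLK1 spanned 1.84 on the log2 scale, and those of JAG2 spanned 1.8 and 1.87 at its 2 probe sets. DLK1 (chr14:100726892-100738224, GRCh38.p14, probe set 209560_s_at) encodes a membrane protein with epidermal growth factor repeats that marks immature and endocrine cells. At 72 h its intensity was 4065, 5031 and 3771 in ATRA arrays and 4621, 4922 and 4450 in arrays with both agents, 11800, 11570 and 12170 in VPA arrays, and 11240 and 11510 in DMSO arrays. All 6 arrays with ATRA lay far below all 5 without it.

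DLK1 was thus 2.67-fold lower with ATRA than with DMSO at 72 h (log2 change −1.42 ± 0.08, limma adjusted p = 6.3e-14, n = 3 and 2). With both agents it was 2.44-fold lower (−1.29 ± 0.08, adjusted p = 3.4e-13, n = 3 and 2). VPA alone gave 0.06 ± 0.08 (adjusted p = 0.81), with a 95% interval of −0.11 to 0.23. The combination and ATRA alone overlapped at 72 h, with a difference of 0.13 ± 0.07 (adjusted p = 0.22).

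At the earlier times DLK1 moved little. The 12 arrays of 6 h lay between 14360 and 15690, and those of 24 h between 11910 and 13980. None of the 6 comparisons with DMSO at these times passed the test, their log2 changes reaching at most 0.09 in size. The change under ATRA at 72 h differed from that at 6 h by −1.41 ± 0.11 (adjusted p = 1.9e-10), and that under both agents by −1.28 ± 0.11 (adjusted p = 7.3e-10). In the order of the 12 group means, DLK1 in ATRA and in combination arrays of 72 h came lowest, within 1 SD of each other, and then a gap of 1.29 followed.

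DLL3 (chr19:39498947-39508469, probe set 219537_x_at) is the Delta-like protein that keeps Notch receptors from reaching the cell surface. At 72 h it read 54.89, 52.62 and 56.7 in ATRA arrays, 65.5, 61.83 and 69.13 in arrays with both agents, 70.48, 78.78 and 91.53 in VPA arrays, and 96.73 and 103.4 in DMSO arrays. The DMSO arrays were the highest of all, above every array of each treatment. Of these differences, ATRA (−0.86 ± 0.17, adjusted p = 0.00025) and the combination (−0.6 ± 0.17, adjusted p = 0.0065) passed the test, and VPA (−0.32, adjusted p = 0.34) did not. The combination result reached an adjusted p of 0.069 without DMSO 72 h replicate 2.

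DLL3 also moved in the vehicle arrays. It read 96.73 and 103.4 in DMSO arrays of 72 h, against 61.92, 54.34 and 68.98 in those of 6 h (0.69 ± 0.17, adjusted p = 0.0078). Without either DMSO array of 72 h this call was lost, as its adjusted p then lay between 0.059 and 0.093. ATRA arrays at 72 h, at 52.62 to 56.7, overlapped the 50.24 to 61.92 of ATRA arrays at 6 h. The lower value with ATRA at 72 h is thus set against a DMSO level that rose with time in culture. The single DLL3 probe set has a suffix that marks probes shared with other transcripts, so its signal can include other genes.

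JAG2 (chr14:105140995-105168776, probe set 32137_at), an activating ligand of the Jagged family, had the largest change at 6 h among the ligand members. At 6 h it read 115.8, 94.48 and 117.2 in VPA arrays, 98.89, 80.68 and 82.84 in arrays with both agents, 33.59, 27.82 and 30.43 in ATRA arrays, and 35.93, 42.53 and 38.65 in DMSO arrays. All 6 arrays with VPA stood above all 6 without it. VPA raised JAG2 by 1.46 ± 0.16 at 6 h (adjusted p = 1.4e-07), and both agents raised it by 1.14 ± 0.16 (adjusted p = 5.1e-06). ATRA arrays all lay below DMSO, by −0.34 ± 0.16, which did not pass the test (adjusted p = 0.54).

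At 24 h the picture with both agents differed from that with VPA alone. JAG2 read 37.55, 29.51 and 28.4 in arrays with both agents and 102.4, 115.5 and 89.64 in VPA arrays. ATRA arrays read 37.62, 39.35 and 29.5, and DMSO arrays 32.38, 55.12 and 51.91. VPA alone stood apart from the other 3 groups, whose arrays overlapped.

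VPA raised JAG2 at 24 h by 1.15 ± 0.16 (adjusted p = 5.5e-06), or by 0.92 (adjusted p = 7.9e-05) without DMSO 24 h replicate 1. The combination lay below VPA alone by −1.66 ± 0.16 (adjusted p = 3.9e-09). It also lay below DMSO, by −0.51 ± 0.16 (adjusted p = 0.02), a call lost in 6 of 17 alternatives (adjusted p up to 0.24). Without DMSO 24 h replicate 1, which read 32.38, that last value was −0.74 (adjusted p = 4e-04), and the change with ATRA alone, −0.35 with all arrays (adjusted p = 0.12), was −0.59 (adjusted p = 0.005).

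The test of non-additivity, the change with both agents minus the sum of the changes with each, gave −1.31 ± 0.22 for JAG2 at 24 h (adjusted p = 0.0013, or 0.0038 without DMSO 24 h replicate 1). In a fit on the compared arrays alone the call was lost (adjusted p = 0.13). JAG2 was the 1 member of 9 called, where 0.737% of all genes were. At the other JAG2 probe set, 209784_s_at, the same term was −0.64 ± 0.35 (adjusted p = 0.63). That probe set read 29.23, 30.07 and 33.6 in arrays with both agents and 99.03, 61.5 and 39.08 in VPA arrays at 24 h, against 22.32, 30.44 and 50.49 in DMSO arrays. Its VPA arrays were widely spread, and the lowest of them overlapped DMSO.

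At 72 h JAG2 read 35.59, 33.53 and 36.49 in arrays with both agents and 74.91, 72.1 and 78.92 in VPA arrays. ATRA arrays read 42.24, 28.82 and 40.7, and DMSO arrays 45.75 and 48.1. VPA arrays were again the highest, and the other treated arrays were all below DMSO. The change with VPA was 0.67 ± 0.18 (adjusted p = 0.015), which was lost without either DMSO array of 72 h (adjusted p = 0.15 and 0.1) or without VPA 72 h replicate 3 (0.052). The difference between the combination and VPA alone was −1.08 ± 0.16 (adjusted p = 3.3e-06).

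The second JAG2 probe set gave the same directions for VPA at 6 h, 1.37 ± 0.25 (adjusted p = 0.00036 in a fit over all 19415 single-symbol probe sets). At 24 h it gave 0.91 (adjusted p = 0.016), which fell to 0.65 (adjusted p = 0.12) without DMSO 24 h replicate 1, and at 72 h 0.48 (adjusted p = 0.45). The combination differed from VPA alone there by −0.98 at 24 h (adjusted p = 0.0086) and by −0.97 at 72 h (adjusted p = 0.0042). The change with both agents was lower at 72 h than at 6 h at both probe sets, by −1.55 ± 0.24 at 32137_at (adjusted p = 1.3e-05 in the fit over genes) and by −1.56 at 209784_s_at (adjusted p = 0.0036).

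JAG1 (chr20:10637684-10673999, probe set 209097_s_at), the other Jagged ligand, was near background. Its lowest, median and highest intensities over the 35 arrays were 17.53, 21.72 and 27.74, and 11 of 12 group means lay below the highest lower quartile of an array. Its changes against DMSO ran between −0.1 and 0.09, and all 11 neighbouring pairs in its order lay within 1 SD. At 2 further JAG1 probe sets at the same low level, 209099_x_at and 216268_s_at, VPA at 6 h gave 0.35 ± 0.09 each (adjusted p = 0.016 and 0.014 over all probe sets).

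**Figure D2:**
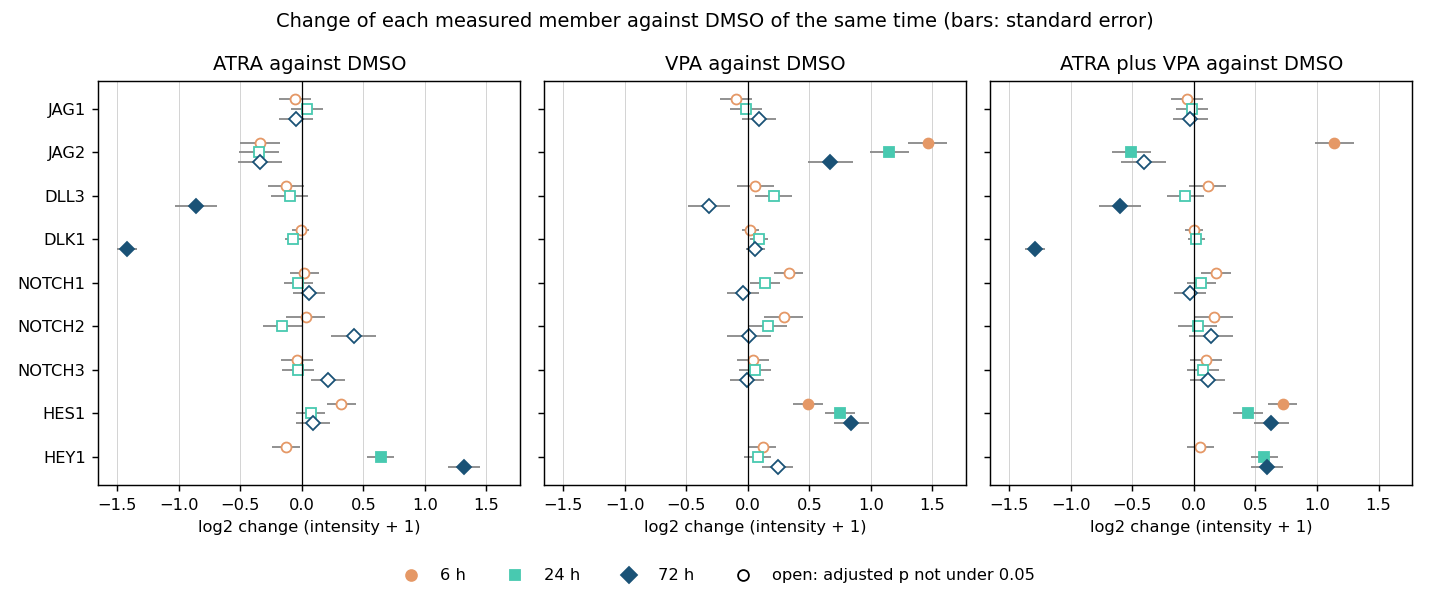
Log2 change in intensity + 1 (x axis, bars are standard errors) of the 9 measured genes (y axis) under ATRA, VPA and ATRA plus VPA against DMSO of the same time, with symbols for 6, 24 and 72 h and open symbols where the adjusted p was not under 0.05. JAG2 reaches 1.46 and DLK1 −1.42, whereas JAG1, NOTCH1, NOTCH2 and NOTCH3 have only open symbols.

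The receptors gave low signals and small changes at the probe sets that stand for them. NOTCH1 (chr9:136494433-136546048, 218902_at), the receptor of neural progenitors, ranged between 21 and 37.03 with a median of 24.84. It read 27.29, 37.03 and 35.3 in VPA arrays of 6 h, against 24.45, 24.55 and 29.24 in DMSO arrays, and these groups overlapped. The difference of 0.33 ± 0.12 did not pass the test (adjusted p = 0.073), but did without VPA 6 h replicate 1 (0.46, adjusted p = 0.015) or without DMSO 6 h replicate 3 (adjusted p = 0.048).

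NOTCH3 (chr19:15159038-15200995, 203237_s_at), a receptor best known from vascular smooth muscle, ranged between 26.44 and 39.43 with a median of 31.55. Its changes against DMSO lay between −0.04 and 0.21. At its other probe set, 203238_s_at, arrays with both agents read 25.61, 34.87 and 31.13 at 72 h, against 23.22 and 22.47 in DMSO arrays (0.39 ± 0.14, adjusted p = 0.041 over all probe sets). The treated arrays were all higher there, but close to the background level.

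NOTCH2 (chr1:119911553-120069662) depended on the probe set. At 210756_s_at, which stands for it, intensities ranged between 27.24 and 58.18 with a median of 34.09, and the changes lay between −0.16 and 0.42. The highest of these was ATRA at 72 h, with 32.89, 58.18 and 37.3 against 32.32 and 29.5 in DMSO arrays (0.42 ± 0.18, adjusted p = 0.087, or 0.58 with adjusted p = 0.023 without ATRA 72 h replicate 1). A single array of 58.18 stood out in that group.

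At the NOTCH2 probe set 202443_x_at, intensities at 24 h were 68.41, 85.6 and 50.76 with both agents, 73, 78.07 and 47.91 with VPA, 22.4, 25.11 and 21.72 with ATRA, and 19.83, 23.16 and 24.96 with DMSO. The 6 arrays with VPA were all above the 6 without it. VPA gave 1.48 ± 0.18 (adjusted p = 1.8e-06) and the combination 1.52 (adjusted p = 3.4e-07), in the fit over all probe sets. At 6 h the changes were 0.77 ± 0.18 with VPA (adjusted p = 0.0059) and 0.66 with both (adjusted p = 0.019), and at 72 h 0.98 ± 0.21 (adjusted p = 0.0029) and 0.59 (adjusted p = 0.031).

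A further NOTCH2 probe set, 212377_s_at, moved likewise under VPA, by 0.77 ± 0.14 at 6 h (adjusted p = 0.00036), 0.75 at 24 h (adjusted p = 0.00057) and 0.76 at 72 h (adjusted p = 0.0023). With both agents it changed by 0.7, 0.87 and 0.69 at the same times (adjusted p = 0.00092, 2.9e-05 and 0.00096). At 24 h it read 41.08, 42.95 and 39.99 with VPA, against 27.02, 21.9 and 24.07 with DMSO. The groups did not overlap.

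NOTCH2NLA is a partial duplicate of NOTCH2 found in humans, and its transcripts share much of their sequence with it. It was chosen after its values were seen. Its own probe set, 214722_at, changed under VPA by 0.95 at 6 h (adjusted p = 6.5e-05 over all probe sets), 0.64 at 24 h (0.0053) and 0.61 at 72 h (0.028), and its mean at 6 h was 128.7 with VPA and 66.09 with DMSO. Which of the 2 genes gives the signal of the NOTCH2 probe sets was not tested, so the higher NOTCH2 signal under VPA is uncertain. The fourth probe set, 202445_s_at, was below the lower quartile in all 12 groups. Its change with ATRA at 24 h, −0.28 ± 0.08 (adjusted p = 0.013), was −0.19 (adjusted p = 0.14) without DMSO 24 h replicate 1.

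**Figure D3:**
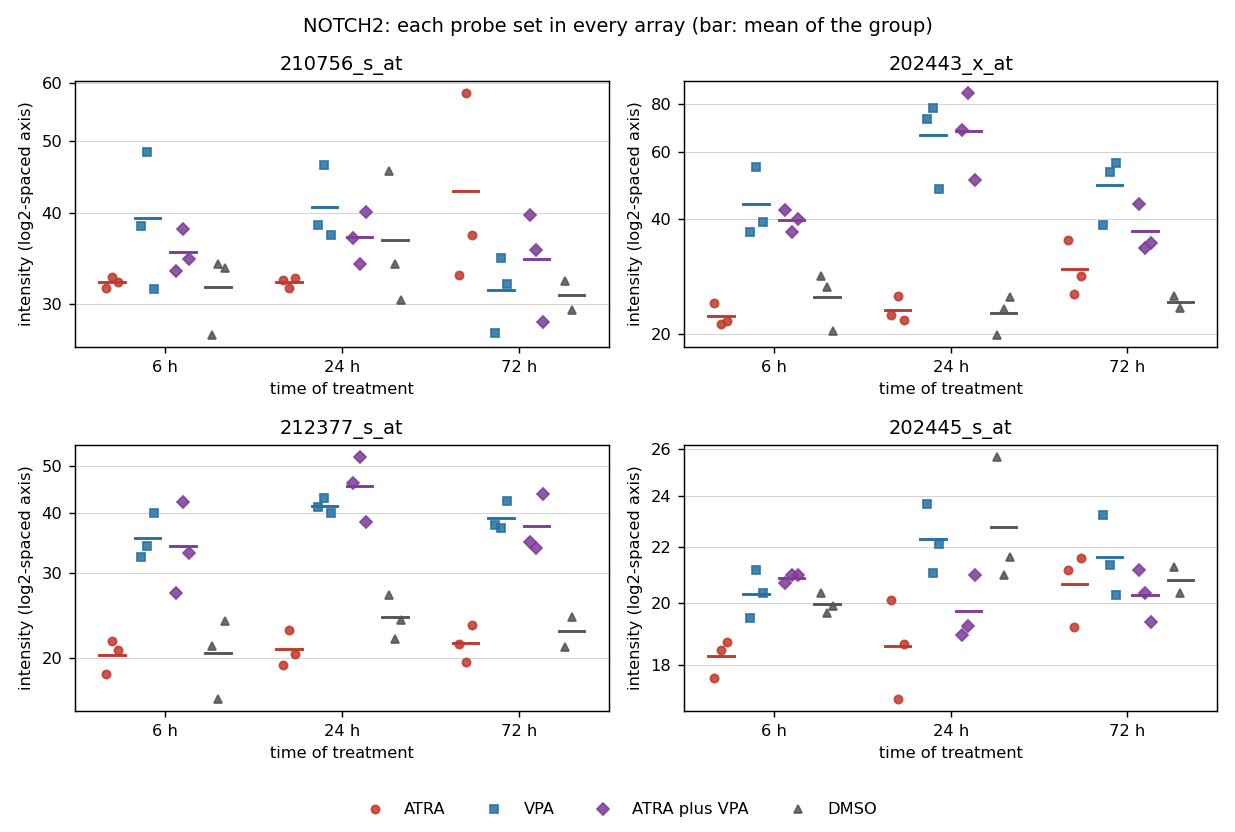
Intensity at each of the 4 NOTCH2 probe sets on every array (y axis, log2-spaced) by time (x axis) and treatment, with 1 point per array and a bar for the group mean. At 202443_x_at the 24 h arrays with VPA, alone or with ATRA, lie between 47.91 and 85.6, against 19.83 to 25.11 for ATRA and DMSO.

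Of the target genes, HES1 (chr3:194136148-194138732, probe set 203394_s_at), a repressor that keeps neural progenitors from differentiating, was higher under VPA at every time. At 6 h it read 611.1, 668.7 and 662.4 in VPA arrays, 785.9, 782.6 and 712.6 in arrays with both agents, 547.2, 590.6 and 585.2 in ATRA arrays, and 461.6, 477.5 and 440 in DMSO arrays. The 4 groups did not overlap at all. VPA gave 0.49 ± 0.12 (adjusted p = 0.0073) and the combination 0.72 ± 0.12 (adjusted p = 0.00012). ATRA gave 0.32 ± 0.12, which did not pass the test (adjusted p = 0.35).

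At 24 h HES1 read 918.9, 920.2 and 760.2 with VPA, 835.9, 704.4 and 573.6 with both agents, 479.4, 602.5 and 541.2 with ATRA, and 568.2, 472.2 and 506.3 with DMSO. VPA and combination arrays lay above all DMSO arrays, and ATRA arrays overlapped DMSO. The change was 0.75 ± 0.12 with VPA (adjusted p = 9.5e-05) and 0.44 ± 0.12 with both (adjusted p = 0.011). In a fit on the compared arrays alone the second had an adjusted p of 0.16.

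At 72 h HES1 read 750, 735.9 and 724.7 with VPA, 718, 704.8 and 509.1 with both agents, 386.2, 440.8 and 495.8 with ATRA, and 432 and 393.1 with DMSO. All VPA and combination arrays were again above ATRA and DMSO arrays, with 1 combination array, at 509.1, close to the highest ATRA array. The change was 0.84 ± 0.14 with VPA (adjusted p = 0.00013) and 0.63 ± 0.14 with both (adjusted p = 0.00064). ATRA alone gave 0.09 (adjusted p = 0.67).

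The second HES1 probe set, 203395_s_at, gave 0.26, 0.5 and 0.73 with VPA at 6, 24 and 72 h, of which the last 2 passed the test (adjusted p = 0.08, 4e-04 and 1.4e-05 over probe sets). With both agents it gave 0.5, 0.42 and 0.68, all past the test. ATRA at 72 h reached 0.3 there (adjusted p = 0.029), unlike at the first probe set. Mean intensities at 203395_s_at were 251.8, 294.5 and 252.3 with VPA at 6, 24 and 72 h. Those with DMSO were 210.9, 207.7 and 151.5. With ATRA the mean was 256.8 at 6 h and 186.6 at 72 h. The changes at 72 h are thus taken against a lower DMSO level. The third HES1 probe set, 203393_at, read 12.94 to 19.66 and was below the lower quartile on all 35 arrays.

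HEY1 (chr8:79764010-79767767, probe set 44783_s_at), a repressor related to HES1, responded to ATRA. At 72 h it read 4969, 4766 and 5581 in ATRA arrays, 3046, 3119 and 3037 in arrays with both agents, 2510, 2504 and 2226 in VPA arrays, and 2048 and 2030 in DMSO arrays. The groups did not overlap, with ATRA highest and DMSO lowest. ATRA raised HEY1 2.5-fold (1.32 ± 0.13, adjusted p = 3.1e-09), and both agents gave 0.59 ± 0.13 (adjusted p = 0.00053). VPA gave 0.24 (adjusted p = 0.34).

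At 24 h HEY1 read 3643, 3944 and 3425 with ATRA, 4307, 3217 and 3087 with both agents, 2688, 2721 and 2126 with VPA, and 2766, 2223 and 2125 with DMSO. Both groups with ATRA lay above both without it. ATRA gave 0.64 ± 0.11 (adjusted p = 0.00012) and the combination 0.57 ± 0.11 (adjusted p = 0.00044), or 0.75 and 0.69 without DMSO 24 h replicate 1. In a fit on the compared arrays alone the combination had an adjusted p of 0.092. At 6 h no comparison passed, and ATRA gave −0.13.

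The second HEY1 probe set, 218839_at, gave a change with ATRA of 1.02 ± 0.09 at 24 h (adjusted p = 1.9e-09 over probe sets) and 0.88 ± 0.1 at 72 h (adjusted p = 2e-07). It read 2522, 2997 and 3113 with ATRA at 72 h, 2201, 2281 and 2298 with both agents, 1531, 1683 and 1656 with VPA, and 1468 and 1654 with DMSO. ATRA and combination arrays were above VPA and DMSO arrays, and the VPA and DMSO arrays overlapped.

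The probe sets differed on non-additivity at 72 h. At 44783_s_at the term was −0.97 ± 0.17 (adjusted p = 0.0011), HEY1 being the 1 member of 9 called, where 1.92% of all genes were. At 218839_at it was −0.4 ± 0.14 (adjusted p = 0.16). Direct comparison of the combination with ATRA alone at 72 h gave −0.73 ± 0.11 at 44783_s_at (adjusted p = 2.7e-05) and −0.34 at 218839_at (adjusted p = 0.011). The sign was thus the same at both, and the size was not.

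**Figure D4:**
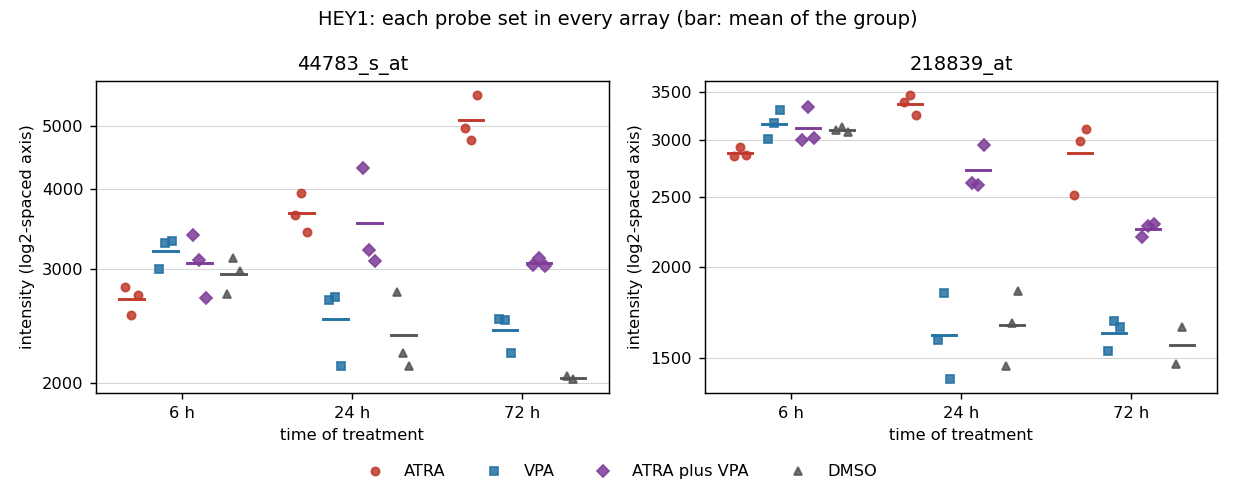
Intensity at the 2 HEY1 probe sets on every array (y axis, log2-spaced) by time (x axis) and treatment, with 1 point per array and a bar for the group mean. At 44783_s_at ATRA arrays of 72 h lie between 4766 and 5581, above the 3037 to 3119 of arrays with both agents, and at 218839_at they lie between 2522 and 3113, against 2201 to 2298.

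Counted over the 9 measured genes, ATRA called 0 at 6 h, where 1.62% of all genes were called by limma, and 2 passed an unadjusted p under 0.05. It called 1 at 24 h (background 18.5%) and 3 at 72 h (30.9%). VPA called 2 at each time, where the background was 11.2%, 12.2% and 6.67%. The combination called 2, 3 and 4, where it was 11.6%, 21.2% and 31.5%. With ATRA at 72 h the share of the 9 genes called was about that of all genes, and in no comparison is the count alone a result about these genes. The median change of the 9 was 0.06 with ATRA at 72 h, against 0 for all genes, and 0.12 with VPA at 6 h, against 0.

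Setting the combination against each single agent shows which response each added agent changed. Against ATRA alone, 2 of 9 genes were called at 6 h (background 12%). These were JAG2, higher by 1.48 ± 0.16 (adjusted p = 7.3e-08), and HES1, higher by 0.4 ± 0.12 (adjusted p = 0.029, up to 0.12 in other settings). At 24 h limma called none (background 9.49%), with 1 at an unadjusted p under 0.05, HES1, at 0.37 (adjusted p = 0.057). At 72 h it called 2 (background 20.8%), HES1, higher by 0.54 ± 0.12 (adjusted p = 0.0023), and HEY1, lower by the −0.73 given above.

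Against VPA alone, limma called none at 6 h (background 0.57%), and none had an unadjusted p under 0.05. At 24 h it called 2 (background 11.9%), HEY1, higher by 0.49 ± 0.11 (adjusted p = 0.0039, or 0.1 in a fit on the compared arrays alone), and JAG2, lower as given above. At 72 h it called 3 (background 25.7%). DLK1 was lower by −1.35 ± 0.07 (adjusted p = 1.4e-14) and JAG2 by −1.08, and HEY1 was higher by 0.35 ± 0.11 (adjusted p = 0.024). The HEY1 call was lost in 4 of 17 alternatives, with adjusted p between 0.051 and 0.11.

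Time in vehicle moved 3 of the 9 genes between 6 and 72 h, where 10.6% of all genes were called. HEY1 read 2048 and 2030 in DMSO arrays of 72 h, against 2752, 3122 and 2983 at 6 h (−0.53 ± 0.13, adjusted p = 0.0064). DLK1 was lower at 72 h by −0.4 ± 0.08 (adjusted p = 0.002), and DLL3 was higher. The HEY1 call, like that of DLL3, was lost without either DMSO array of 72 h.

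Between 6 and 24 h in DMSO none of the 9 was called (background 15.2%), with 2 at an unadjusted p under 0.05 by limma. These were DLK1 (−0.2, adjusted p = 0.061) and HEY1 (−0.32, adjusted p = 0.054). HEY1 was at −0.44 (adjusted p = 0.027) without DMSO 24 h replicate 1. At the second HEY1 probe set the fall in DMSO was larger, −0.9 ± 0.09 at 24 h (adjusted p = 3.2e-07) and −0.99 ± 0.1 at 72 h (adjusted p = 1.9e-07). The difference between ATRA and DMSO at the later times is thus taken against a DMSO level that fell. At 218839_at ATRA arrays of 72 h, at 2522 to 3113, overlapped DMSO arrays of 6 h, at 3076 to 3132, whereas at 44783_s_at those with ATRA at 72 h were above all DMSO arrays.

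Testing whether each treatment's change at 72 h differed from that at 6 h called 3 of 9 for ATRA (background 17.3%), 0 for VPA (background 2%, 2 at an unadjusted p under 0.05 by limma) and 4 for the combination (background 17%). For ATRA these were DLK1, HEY1 (1.45 ± 0.17, adjusted p = 4.1e-07) and DLL3 (−0.73 ± 0.23, adjusted p = 0.027). For the combination they were DLK1, JAG2, HEY1 (0.54 ± 0.17, adjusted p = 0.028) and DLL3 (−0.72 ± 0.23, adjusted p = 0.028). Both DLL3 calls and the combination call of HEY1 were lost in some alternatives, with adjusted p up to 0.11. With VPA, JAG2 gave −0.79, which did not pass the test (adjusted p = 0.084).

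The rest of the pathway was taken from 9 lists of 96 genes in all, of which 73 were measured. For these genes, rose and fell mean higher and lower than in DMSO of the same time. Higher and lower calls among them against DMSO numbered 3 and 2 with ATRA at 6 h, 17 and 4 at 24 h and 5 and 15 at 72 h. Of all genes, 12.5% were called higher and 6.03% lower with ATRA at 24 h, and 10.7% higher and 20.2% lower at 72 h. With VPA the calls among the 73 were 8 and 4, 8 and 2, and 3 and 1, and with both agents 7 and 7, 14 and 6, and 12 and 10. The 24 h counts changed without DMSO 24 h replicate 1, to 7 and 4 with ATRA, 3 and 6 with VPA, and 9 and 8 with both. The shares of all genes called in either direction are those given above for the 9 members, and nothing particular to the 73 is read from these counts. Their median change was at most 0.06 in size.

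Of 5 further ligands measured, MFAP2, a microfibril protein that can bind Jagged proteins, rose with VPA by 0.49, 0.88 and 1.22 at 6, 24 and 72 h and with both agents by 0.52, 1.4 and 1.31, all past the test. Its means were 144.8, 102.8 and 116 with VPA at these times, against 102.6, 55.83 and 49.14 with DMSO. CNTN1, a contactin of axons that can bind Notch, fell with ATRA at 72 h by −1 ± 0.29 (adjusted p = 0.0088), to a mean of 147.5, against 295.5 with DMSO. DLK2, the paralog of DLK1, rose with VPA at 6 h by 0.42 (adjusted p = 0.02), with a mean of 29.89, against 22.02 with DMSO. NOTCH4, the fourth receptor, was called in no comparison with DMSO. Its lowest change was −0.47 with VPA at 24 h (adjusted p = 0.075).

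Of 7 measured genes of receptor cleavage, 4 rose and none fell with both agents at 24 h, where 13.5% of all genes were called higher, but without DMSO 24 h replicate 1 this was 1 and 0. At 72 h 4 rose and none fell, where 14.9% of all genes were called higher and 16.6% lower. ADAM17, a protease that cuts Notch at the surface, rose with both agents by 0.28, 0.38 and 0.42 at 6, 24 and 72 h, and with ATRA by 0.32 at 6 h (adjusted p = 0.045) and 0.52 at 24 h (adjusted p = 3.9e-05). NCSTN, the substrate-binding subunit of gamma-secretase, rose by 0.53 with ATRA at 24 h (adjusted p = 0.017), and was at 0.27 (adjusted p = 0.25) without DMSO 24 h replicate 1. With VPA at 24 h NCSTN was at −0.23 (limma adjusted p = 0.37), and at −0.5 (adjusted p = 0.019) without that array. APH1A, the scaffold subunit of gamma-secretase, fell by −0.79 with ATRA at 72 h (adjusted p = 0.028). It rose by 0.74 with both agents at 24 h (adjusted p = 0.029), but without DMSO 24 h replicate 1 that value was 0.62 (adjusted p = 0.12).

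Of 6 glycosylation genes, which tune how receptors bind ligands, RFNG rose with both agents at 72 h by 0.65 (adjusted p = 0.0021) and POGLUT1 by 0.42 (adjusted p = 0.0083). POFUT1, which adds the fucose that the fringe enzymes extend, fell with VPA at 6 h by −0.37 (adjusted p = 0.003).

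Of 11 genes of trafficking and turnover, 5 rose with ATRA at 24 h and none fell, or 3 and 0 without DMSO 24 h replicate 1, where with all arrays 12.5% of all genes were called higher and 6.03% lower. DTX4, a ubiquitin ligase of the Deltex family, rose with ATRA by 0.65 at 24 h and by 1.53 ± 0.2 at 72 h (adjusted p = 7e-07), and with both agents by 0.95 and 1.45. With VPA alone DTX4 read 59.28 to 69.2 at 6 h, against 34.87 to 42.62 with DMSO. At 24 h VPA gave 0.55 for it (adjusted p = 0.04), or 0.48 (adjusted p = 0.12) without DMSO 24 h replicate 1. NUMB, an adaptor that removes Notch from the membrane, rose with ATRA at 24 h by 0.82 (adjusted p = 0.00072), or by 0.5 (adjusted p = 0.011) without that array. AAK1, a kinase of NUMB, rose there by 0.69 (adjusted p = 0.0034), and was at 0.49 (adjusted p = 0.05) without it.

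The 8 measured genes of the nuclear complex were called lower than in DMSO or not at all. With ATRA 0, 0 and 1 were lower at 6, 24 and 72 h, where 0.586%, 6.03% and 20.2% of all genes were. With VPA these were 2, 1 and 0 (4.7%, 2.49% and 2.15%), and the 24 h count was 0 without DMSO 24 h replicate 1. With both agents they were 2, 2 and 3 (4.87%, 7.79% and 16.6%). Most of the 8 were thus not called in any 1 comparison, and nothing is read from these counts. RBPJ itself, the DNA-binding protein of the complex, was called in no comparison with DMSO. Its group means lay between 1174 and 1485 and its changes between −0.18 and 0.1. The acetyltransferase CREBBP fell with VPA at 6 h by −0.55 (adjusted p = 2e-04) and with both agents by −0.57, −0.42 and −0.31 at 6, 24 and 72 h. MAML1, a Mastermind coactivator, fell with ATRA at 72 h by −0.52 (adjusted p = 5e-04) and with both by −0.62 (adjusted p = 4.2e-05).

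The 10 corepressors measured held larger changes, in opposite directions within the Groucho family, whose proteins bind HES and HEY factors. TLE3 rose with ATRA by 1.24, 1.28 and 0.85 at 6, 24 and 72 h and with both agents by 1.14, 1.51 and 1.59. TLE1 fell with ATRA by −0.5, −1.01 and −0.69 and with both agents by −1.03 at 24 h and −0.66 at 72 h. Its means were 352.4, 412.5 and 415.2 with ATRA at 6, 24 and 72 h, against 498.6, 836.2 and 668.3 with DMSO. TLE2 rose with both agents at 24 h by 1.64 ± 0.15 (adjusted p = 6.3e-10), with a mean of 426.9, against 139 with DMSO. It also rose at 24 h with VPA alone, by 1.01 (adjusted p = 1.3e-05). With ATRA alone it rose there by 0.52 (adjusted p = 0.011), or by 0.29 (adjusted p = 0.17) without DMSO 24 h replicate 1. With ATRA at 72 h 1 corepressor was called higher and 6 lower, with a median change of −0.44 against 0 for all genes, of which 10.7% were called higher and 20.2% lower.

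Among 11 other genes reported as Notch targets, SOX9, a factor of neural crest and glia, rose with ATRA by 1.5 at 24 h and 1.88 at 72 h, and with both agents by 2.36 ± 0.2 at 72 h (adjusted p = 1.8e-10). With VPA alone SOX9 read 73.22 to 84.64 at 6 h, against 28.23 to 44.18 with DMSO. At 72 h it read 83.55 to 107.7 with VPA, against 45.21 to 55.56 with DMSO. At 24 h VPA gave 0.23 for SOX9 (adjusted p = 0.46). BHLHE40, a repressor of the HES-related class, rose with ATRA by 1.03, 2.03 ± 0.16 and 1.06 at 6, 24 and 72 h and was not called with VPA. GATA3, a factor of sympathetic neurons, fell with ATRA by −0.65, −0.75 and −1.17 and with both agents by −1.01, −0.9 and −0.79, and was not called with VPA.

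Of 14 proneural factors and their partners, 2 were called higher and 1 lower with ATRA at 24 h. Without DMSO 24 h replicate 1 these counts were 0 and 1, where 13.9% of all genes were called. With ATRA at 72 h 0 were called higher and 4 lower. With all arrays the calls are near the 18.5% and 30.9% of all genes called at these times. ID1, an inhibitor of these factors, was higher with both agents at 24 h by 0.96 (adjusted p = 9.7e-05), and it was lower with ATRA at 72 h by −0.61 (adjusted p = 0.015). With ATRA at 24 h it was higher by 0.7 (adjusted p = 0.0034), or by 0.5 (adjusted p = 0.052) without DMSO 24 h replicate 1. ID2 fell with ATRA at 72 h by −0.8 (adjusted p = 0.00013). NEUROG1 fell with both agents at 24 h by −0.54 (adjusted p = 0.0054), and was at −0.33 (adjusted p = 0.081) without DMSO 24 h replicate 1.

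Sums of cell state markers also differed between groups. The summed intensity of 7 noradrenergic markers at 72 h lay between 9762 and 10442 in ATRA arrays and between 9220 and 10686 in arrays with both agents, against 15050 to 17492 with VPA and 17466 to 17620 with DMSO. That of 8 mesenchymal or substrate-adherent markers lay between 7331 and 8421 with ATRA, 12289 and 13065 with both agents, 8508 and 9230 with VPA, and 5951 and 5996 with DMSO. Of the markers summed, 1 of 7 noradrenergic and 3 of 8 mesenchymal ones never exceeded the array median. Group means ran from 2824 to 9249 for CHGA, from 3508 to 6685 for VIM and from 146.7 to 3940 for FN1. Such bright genes weigh most in the sums, so a different sum is not a shift of every marker. GATA3 is on the noradrenergic list and on that of Notch targets. At 72 h DLK1 and DLL3 were low in the groups with low noradrenergic sums. At 24 h the noradrenergic sums lay between 11188 and 12089 with both agents and between 13796 and 16423 with DMSO. DLK1 and DLL3 changed there by 0.02 and −0.07, and neither was called. The DLL3 value depended on DMSO 24 h replicate 1, and was −0.32 (limma adjusted p = 0.1) without it. With array weights it was −0.4 (limma adjusted p = 0.0034). The part of these sums in the results was not tested. All 4 haematopoietic, 4 of 5 endothelial and 3 of 4 Schwann or glial markers measured never exceeded the array median, with group sums of 80.36 to 109.7, 112.5 to 131.8 and 97.62 to 120.8. The 3' over 5' log2 ratio at 72 h averaged 1.82 with ATRA, 1.09 with VPA, 1.36 with both and 1.06 with DMSO. With this ratio as a covariate the changes with ATRA at 72 h were −1.47 for DLK1 and 1.1 for HEY1 (adjusted p = 1.6e-12 and 1.3e-07). The DLL3 change with ATRA at 72 h minus that at 6 h lost its call (limma adjusted p = 0.073). The ratio was 1.64 to 1.99 in ATRA arrays of 72 h and 0.94 and 1.18 in DMSO arrays. This covariate therefore cannot separate RNA quality from treatment.

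For the 4 genes with the widest ranges, the genes most like them were found by Pearson correlation over the 12 group means among 2375 genes whose means span at least 1 log2 unit. These points share arrays and treatments, so the values are descriptions. DLK1 was most like ELAVL1 (0.977), MYCBP (0.976) and DPY19L1 (0.975). JAG2 was most like ANKRD27 (0.927), STC2 (0.924) and PDE4A (0.922), HEY1 like PRSS2 (0.916), PRSS3 (0.854), which is nearly identical to PRSS2, and UPP1 (0.836), and HES1 like ANG (0.876), CBR3 (0.876) and FAH (0.871).

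The order of the group means shows how distinct the levels were. For HES1 the lowest group was DMSO at 72 h and the highest VPA at 24 h, and 9 of 11 neighbouring pairs lay within 1 SD of each other. For HEY1 the lowest was DMSO at 72 h and the highest ATRA at 72 h, which stood 0.47 above the next, and 7 of 11 pairs lay within 1 SD. JAG2 was lowest with ATRA at 6 h and highest with VPA at 6 h. It had a gap of 0.67 between its 4 highest groups, VPA at all times and the combination at 6 h, and the other 8. In DLL3 9 of 11 pairs and in DLK1 5 of 11 lay within 1 SD.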

How the data were processed

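Total RNA of 35 samples of BE(2)-C cells was labelled with biotin and hybridised to Affymetrix HT-HG_U133A Early Access arrays. The deposited values are intensities on a linear scale, 1 per probe set and array, and per the submitters' processing notes the authors made them with RMA, which corrects background, normalises quantiles and summarises probes. The number of arrays limits their precision. Of 22930 probe sets, 19415 carried 1 gene symbol and were used; 125 with several symbols, 3292 with none and 98 controls were left out. One probe set stood for each of 11940 genes, the one with the highest mean log2 intensity. From the deposited intensities, log2(intensity + 1) was computed, and limma 3.58.1 in R 4.3.3 fitted 12 group means (23 residual and 5.5 prior degrees of freedom) with 23 contrasts, moderated tests and Benjamini-Hochberg adjustment over all genes within each contrast, threshold 0.05. A second fit over all 19415 probe sets gave the values of the others. The procedure was tested on simulated data.

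Members and lists were chosen with earlier results of these data known. Beyond the members, the text names up to 3 genes per pathway list with the largest change past the threshold, RBPJ and NOTCH4, and 3 genes most like each of the 4 members with the widest range; NOTCH2NLA was added after its values were seen. Some genes of the lists are not reported here. The labels do not say that replicate numbers pair the samples of different groups. In 0 of 17 comparisons was every same-numbered pair correlated over 0.1, and the mean correlation of deviations was 0 over 187 such pairs. With at most 3 pairs per comparison, this check cannot exclude pairing. No pair of arrays held identical values. Promoter sequences came from RefSeq (GRCh38.p14). Alternatives were the replicate block, low-intensity filter, mean of probe sets, prior, array weights, a second quantile normalisation, pseudocount 32, the 3'/5' ratio as covariate, only the arrays compared, each array left out and, added after seeing the data, the probe set with the highest mean intensity.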

Additional observations from a re-analysis of the deposited data

Results flagged for a closer look

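A set of 9 differences between effects passed their own test, that is, an interaction term in the limma fit, and all are differences between times or agents. The response of JAG2 to both agents at 24 h fell short of the sum of the single responses by −1.31 (log2), at 32137_at only, since 209784_s_at did not pass, and in a fit on the compared arrays alone it did not pass at 32137_at either (adjusted p = 0.13). HEY1 at 72 h fell short by −0.97 at 44783_s_at, and 218839_at did not pass. The change with ATRA at 72 h minus that at 6 h was −1.41 for DLK1, −0.73 for DLL3 and 1.45 for HEY1. The change with both agents at 72 h minus that at 6 h was −1.28 for DLK1, −0.72 for DLL3, −1.55 for JAG2 and 0.54 for HEY1. The DLL3 values were taken against a DMSO level that was higher at 72 h than at 6 h, and those of HEY1 and DLK1 against one that was lower.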

How the results depend on the processing

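Of 40 calls over all comparisons, 26 held in every alternative, and of 19 against DMSO 14 did; none reversed. With array weights the count of members called was 2 for ATRA at 6 h, 3 for ATRA at 24 h, 4 for the combination against VPA at 24 h, 2 for the interaction at 72 h, 3 for DMSO at 24 h against 6 h and 1 for the VPA effect at 72 h against 6 h. With only the arrays compared it was 0 for the combination against DMSO and for the interaction at 24 h, 1 for the combination against VPA at 24 h and 1 for the VPA effect at 72 h against 6 h, and fewer arrays set the spread there. For the combination against ATRA at 24 h it was 1 with the dimmest 33.3% of genes left out, the mean of all probe sets, a trended prior, array weights, a second quantile normalization, pseudocount 32 or the brightest probe set by mean intensity, against 0. For DMSO at 24 h against 6 h it was 1 with the replicate block (HEY1, −0.32, adjusted p = 0.042), 2 with these left out, the mean of probe sets, a trended prior or pseudocount 32, and 1 with the 3'/5' covariate, against 0; pseudocount 32 also gave 1 for the VPA effect at 72 h against 6 h. The block changed no other count of members by over 1.5 times. The cause was not tested. Leaving out 1 array gave 1 to 2 calls for ATRA at 24 h, 1 to 2 for VPA at 72 h, 1 to 3 for the combination at 24 h, 1 to 2 for the combination against ATRA at 6 h and 0 to 1 at 24 h, 1 to 2 for the interaction at 72 h, 0 to 1 for DMSO at 24 h and 1 to 3 at 72 h against 6 h, and 2 to 4 for the combination effect at 72 h against 6 h. Taking the brightest probe set by mean intensity moved 28 genes, NOTCH2 among them. Leaving out the dimmest genes moved the median of all genes by −0.13 with ATRA at 72 h. Signal over background limits JAG1 and the receptors, and 2 arrays limit DMSO at 72 h.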
